A study of Mus musculus with 9 samples.

Results

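The death receptor genes Fas and Tnfrsf10b, their ligand genes Fasl and Tnfsf10, the adaptor gene Fadd, its regulator Cflar and the initiator caspase genes Casp8 and Casp9 were followed in mouse CD8+ T cells with and without Tsc1. These 8 genes were taken as a named set, and each was read from the probe set of that gene alone with the highest mean over all 9 arrays. All 8 were measured, among 17097 genes with such a probe set. The cells were specific for OVA, a model antigen, and were sorted by flow cytometry from spleens of C57BL/6 mice at day 9 after infection with the bacterium Listeria monocytogenes. The 5 Tsc1-/- samples came from mice with Tsc1-fl/fl alleles that were positive for Granzyme B-cre, and the 4 WT samples came from cre-negative mice that carried the same Tsc1-fl/fl alleles. The cre is driven by Granzyme B, a gene that T cells switch on after activation, and every Tsc1-/- sample and no WT sample carried it, so an effect of cre and loss of Tsc1 cannot be told apart. The sources give neither the age of the mice nor whether each sample was a separate animal, so p-values reflect the spread among the samples, which may be technical.

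Death receptors of the TNF receptor family carry a death domain in their cytoplasmic tail. When Fas binds Fas ligand, or the TRAIL receptor binds TRAIL, the adaptor FADD joins the tail and recruits caspase-8, which is activated there unless the caspase-like protein c-FLIP, the product of Cflar, takes its place. Caspase-9 starts the separate mitochondrial route, after cytochrome c and Apaf1 have formed the apoptosome. In T cells Fas removes repeatedly stimulated cells, Fas ligand also serves killing of targets, and most effector cells die after an infection is cleared.

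Expression values are log2 values per probe set that the authors made with RMA, so a difference of 1 is a doubling. Between arrays the Pearson correlation over all probe sets was 0.982 to 0.991, and array medians were 5.97 to 6.05. Tsc1, the targeted gene, read 7.27 to 7.51 in Tsc1-/- and 7.56 to 7.77 in WT, a difference of -0.26 (SE 0.08, adjusted p = 0.114, limma), where the position of its probe set relative to the floxed exons is not given in the sources used here. The T cell identity list, with Cd8a and Cd3e, had 9 of 10 genes measured and a mean level of 11.25 to 11.32 in Tsc1-/- and 11.24 to 11.33 in WT. Markers of other spleen cells were also read, and most were lower on average in Tsc1-/-. Some had a mean level well below the median over genes of 6.34, such as Klra8 (3.79), Ebf1 (4.19) and Cd14 (4.60), so their signs carry little weight. Others lay above it, such as Cd74 (10.53) and Lyz2 (8.26). The difference was negative for 12 of 13 macrophage and monocyte, 8 of 9 B cell and 8 of 8 dendritic cell markers. So it was for 6 of 6 neutrophil and 6 of 6 red cell and platelet markers. Among NK cell markers it was negative for 4 of 5, and among CD4 T cell markers for 2 of 4. The median difference was -0.47 for macrophage and monocyte markers and for B cell markers, beside -0.01 over all genes. The mean level of 13 macrophage and monocyte markers was 6.70 to 7.02 in Tsc1-/- and 6.77 to 7.63 in WT, where replicate 4 was the low one. For 9 B cell markers it was 5.75 to 6.16 in Tsc1-/- and 5.97 to 6.57 in WT, and for 8 dendritic cell markers 7.83 to 8.62 in Tsc1-/- and 8.17 to 8.86 in WT. The mean levels of the other lists overlapped too. For NK cell markers they were 6.60 to 6.996 in Tsc1-/- and 6.87 to 7.04 in WT. For neutrophil markers they were 5.67 to 7.42 in Tsc1-/- and 6.48 to 7.32 in WT. Red cell and platelet markers read 6.07 to 7.20 in Tsc1-/- and 6.61 to 6.84 in WT. CD4 T cell markers read 6.82 to 6.97 in Tsc1-/- and 6.82 to 6.94 in WT. Eomes, on the NK cell list, was the only measured marker with an adjusted p under 0.05. It read 7.93 to 8.44 in Tsc1-/- and 8.59 to 8.91 in WT, a difference of -0.58 (adjusted p = 0.0359, limma). Whether its RNA came from NK cells or from the CD8+ T cells was not tested.

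RefSeq lists a promoter window for 7 of the 8 genes, from 250 bases before to 50 bases after the transcription start (build GRCm38.p6), and those of the receptor gene Fas and its ligand gene Fasl are shown because Fas is the gene whose genotypes did not overlap and Fasl encodes its partner. The Fas window lies at chr19:34290409-34290708 on the plus strand, and the Fasl window at chr1:161788446-161788745 on the minus strand. Capitals mark matches, on either strand, to the AP-1 motif TGANTCA, the FoxO core GTAAACA, the STAT core TTCNNNGAA or the interferon-stimulated core GAAANNGAA.
Fas: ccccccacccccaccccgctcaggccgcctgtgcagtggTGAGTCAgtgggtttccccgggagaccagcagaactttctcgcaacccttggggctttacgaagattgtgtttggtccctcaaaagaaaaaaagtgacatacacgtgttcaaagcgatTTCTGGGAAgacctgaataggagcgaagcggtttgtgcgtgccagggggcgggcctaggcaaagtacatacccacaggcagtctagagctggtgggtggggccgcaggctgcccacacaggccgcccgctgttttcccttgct
Fasl: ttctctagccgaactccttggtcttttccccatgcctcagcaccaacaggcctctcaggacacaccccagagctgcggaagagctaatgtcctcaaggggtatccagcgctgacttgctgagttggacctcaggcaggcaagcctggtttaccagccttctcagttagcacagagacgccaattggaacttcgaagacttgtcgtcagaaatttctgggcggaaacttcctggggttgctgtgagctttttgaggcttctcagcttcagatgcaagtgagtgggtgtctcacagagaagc
The Fas window holds 1 AP-1 match, starting 211 bases before the transcription start, and 1 STAT core match, starting 93 bases before it. The matches do not overlap each other. Of 32851 promoter windows of this length, 7.81% hold the AP-1 motif, 3.65% the FoxO core, 8.30% the STAT core and 8.56% the interferon-stimulated core. None of the 4 motifs was found in the Fasl, Tnfsf10, Fadd, Casp8 or Casp9 window, and the Cflar window holds 1 match to the interferon-stimulated core. A match describes these letters alone.

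The comparison asked whether the parts of the death receptor pathway differ between Tsc1-/- and WT effector cells. Fas was higher in every Tsc1-/- sample than in every WT sample, by about 1.32-fold, and did not pass the adjusted threshold (adjusted p = 0.0605, limma). The remaining genes overlapped between genotypes, with Casp8, Fadd and Cflar closest to no difference. At an adjusted p under 0.05 (limma, Benjamini-Hochberg over all genes) 0 of the 8 genes passed, beside 0.971% of all genes that passed as higher and 0.31% as lower. At an unadjusted p under 0.05, 1 of the 8 passed, beside 17.2% of all genes. The median difference over the 8 genes was 0.02, beside -0.01 over all genes. The 8 genes came from 18 probe sets, of which 10 differed upward and 8 downward and none passed the threshold in a fit over all 45037 probe sets, where 108 did, or 0.24%. At an unadjusted p under 0.05 there were 3 of the 18, or 16.7%, beside 14.8% of all probe sets.

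**Figure D1:**
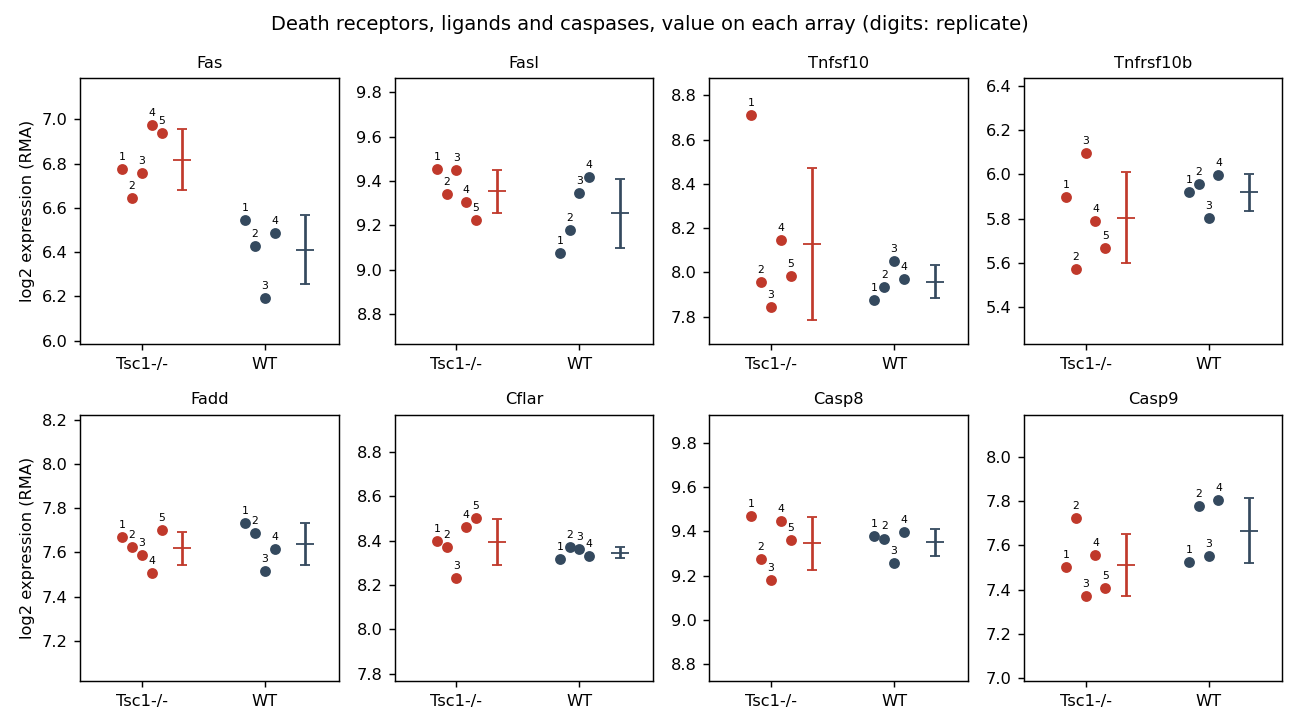
Log2 expression of the 8 genes on each array (y axis, all panels span the same range of 1.2 log2 units), with Tsc1-/- samples left (n = 5) and WT samples right (n = 4), replicate numbers over the points, and a bar for the mean with SD. For Fas the Tsc1-/- points, 6.64 to 6.98, all lie above the WT points, 6.19 to 6.54, and in the other panels the genotypes overlap.

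Fas, the receptor for Fas ligand (probe set 1460251_PM_at), read 6.77, 6.64, 6.76, 6.98 and 6.94 in Tsc1-/- replicates 1 to 5, against 6.54, 6.43, 6.19 and 6.48 in WT replicates 1 to 4. The lowest Tsc1-/- sample, replicate 2, lay above the highest WT sample, replicate 1, and WT replicate 3 was the lowest of all. The means were 6.82 ± 0.14 in Tsc1-/- (SD, n = 5) and 6.41 ± 0.15 in WT (SD, n = 4). The difference was 0.41 (SE 0.10, 95% interval 0.19 to 0.62), a ratio of 1.32 (1.14 to 1.53), and 350 of the 17097 genes had a smaller p. The exact permutation test over all splits of the 9 arrays into 5 and 4 gave p = 0.00794 (two-sided, not adjusted), the smallest it can give. Genotypes did not overlap, with Tsc1-/- higher, in 5.08% of all genes, and in 2.88% with Tsc1-/- lower. In bulk samples more RNA per cell and more cells with the RNA cannot be told apart.

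Fas passed the threshold when genes below the median level were left out (adjusted p = 0.0270), after median centring (0.45, adjusted p = 0.0360), with a variance trend and robust estimation (adjusted p = 0.0401) and with array weights (adjusted p = 0.0498). With the macrophage marker level added to the fit as a covariate the difference was 0.29 (95% interval -0.01 to 0.59, adjusted p = 0.503), and with the B cell marker level 0.27 (95% interval -0.02 to 0.55, adjusted p = 0.542). The direction was the same in all 20 other settings, but some of them could not change it. Fas has 1 probe set, so averaging probe sets or leaving out those with a shared-probe suffix left its difference at 0.41. Leaving out dim genes and the variance trend alter the variance or the adjustment, and the difference stayed at 0.41. Both marker levels largely followed genotype. The macrophage level averaged 6.86 in Tsc1-/- and 7.35 in WT, and the B cell level 5.98 in Tsc1-/- and 6.34 in WT. For both, only WT replicate 4 (6.77 and 5.97) lay among the Tsc1-/- samples, and the other WT samples lay above them. With either covariate 0 genes passed as higher and 0 as lower. These fits therefore cannot separate a marker level from genotype, and the part of other cells in the Fas difference was not tested.

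**Figure D2:**
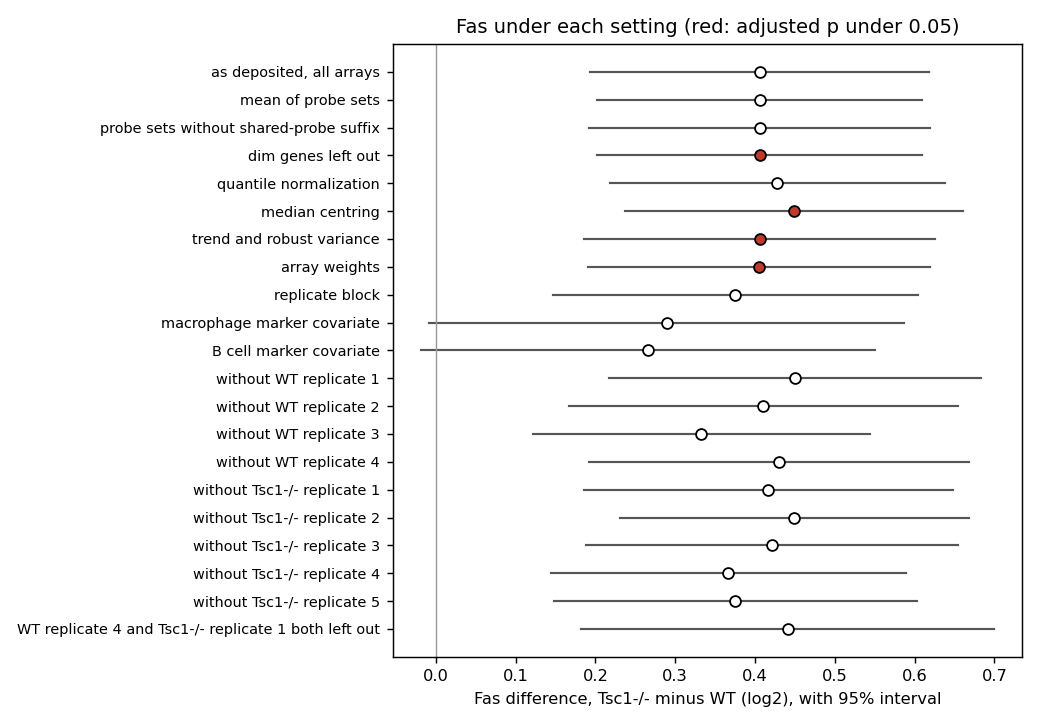
Difference of Fas between Tsc1-/- and WT (x axis, log2) under the setting named on the y axis, with its 95% interval; red points passed the adjusted threshold. The values run from 0.27 with the B cell marker level as covariate to 0.45 without WT replicate 1, and 4 of the 20 alternatives passed.

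Tnfrsf10b, the one TRAIL receptor of mice that carries a death domain (probe set 1422344_PM_s_at), read 5.90, 5.57, 6.09, 5.79 and 5.67 in Tsc1-/-, against 5.92, 5.95, 5.80 and 6.00 in WT. The Tsc1-/- samples spread on both sides of the WT samples. The difference was -0.11 (95% interval -0.34 to 0.11, adjusted p = 0.629, limma; exact permutation p = 0.333). It was the only one of the 8 genes with a mean level, 5.86, below the median over genes of 6.34. Its other probe set, at 3.59 to 4.14 in Tsc1-/- and 3.14 to 4.02 in WT, differed by 0.05 (95% interval -0.34 to 0.44).

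Fasl, which encodes Fas ligand (probe set 1418803_PM_a_at), read 9.45, 9.34, 9.45, 9.30 and 9.23 in Tsc1-/-, against 9.07, 9.18, 9.35 and 9.42 in WT. WT replicates 1 and 2 were the lowest samples, while WT replicates 3 and 4 lay among the Tsc1-/- samples. The difference was 0.10 (SE 0.09, 95% interval -0.10 to 0.30, adjusted p = 0.617, limma; exact permutation p = 0.262). It was 0.04 without WT replicate 1, 0.16 without WT replicate 4 and 0.008 with the macrophage marker level as covariate. The less bright Fasl probe set read 9.54, 9.36, 9.25, 9.36 and 9.40 in Tsc1-/-, against 8.92, 9.07, 9.22 and 9.34 in WT. Here WT replicates 1 to 3 were the lowest and WT replicate 4 lay among the Tsc1-/- samples. That probe set differed by 0.25 (95% interval 0.03 to 0.46), with an exact permutation p = 0.0238 and an adjusted p = 0.270 (limma, over all probe sets).

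Tnfsf10, which encodes TRAIL (probe set 1459913_PM_at), read 8.71, 7.96, 7.84, 8.15 and 7.98 in Tsc1-/-, against 7.87, 7.93, 8.05 and 7.97 in WT. Tsc1-/- replicate 1 stood above every other array, and the other 4 Tsc1-/- samples lay around the WT samples. The difference was 0.17 (95% interval -0.15 to 0.49, adjusted p = 0.603, limma; exact permutation p = 0.460). Without Tsc1-/- replicate 1 it was 0.03 (95% interval -0.16 to 0.21). The other Tnfsf10 probe sets put the same array on top, at 8.28 with the other Tsc1-/- samples at 7.48 to 7.84 and WT at 7.27 to 7.78, and at 7.34 with the other Tsc1-/- samples at 6.64 to 6.76 and WT at 6.48 to 6.78. Those probe sets differed by 0.26 each, with adjusted p = 0.494 and 0.423 (limma, over all probe sets).

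**Figure D3:**
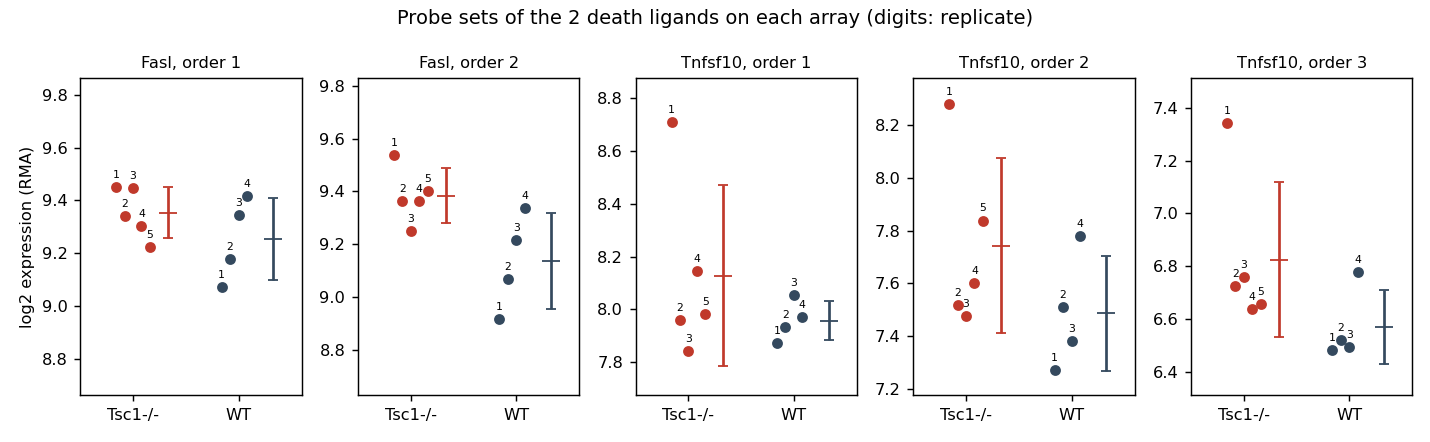
Log2 expression of the Fasl probe sets (left) and the Tnfsf10 probe sets (right), ordered by mean level within a gene, on each array, with Tsc1-/- left (n = 5) and WT right (n = 4), replicate numbers over the points, and bars for the mean with SD. WT replicates 1 and 2 are the lowest Fasl samples on both probe sets, and Tsc1-/- replicate 1 is the highest Tnfsf10 sample on all of them.

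Fadd, the adaptor that links the receptor tails to caspase-8 (probe set 1416888_PM_at), read 7.67, 7.62, 7.59, 7.51 and 7.70 in Tsc1-/-, against 7.73, 7.69, 7.52 and 7.62 in WT. The samples of the genotypes were interleaved. The difference was -0.02 (95% interval -0.19 to 0.15, adjusted p = 0.926, limma; exact permutation p = 0.738). Its other probe set differed by 0.13 (95% interval -0.11 to 0.38).

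Casp8, the initiator caspase of the receptor complex (probe set 1424552_PM_at), read 9.47, 9.28, 9.18, 9.45 and 9.36 in Tsc1-/-, against 9.38, 9.37, 9.26 and 9.40 in WT. The Tsc1-/- samples spanned a wider range than the WT samples and enclosed them. The difference was -0.003 (95% interval -0.18 to 0.18, adjusted p = 0.993, limma; exact permutation p = 0.960), so the interval of the ratio of Tsc1-/- to WT ran from 0.88 to 1.13.

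Cflar, which encodes c-FLIP (probe set 1424996_PM_at), read 8.40, 8.37, 8.23, 8.46 and 8.50 in Tsc1-/-, against 8.32, 8.37, 8.36 and 8.33 in WT. The WT samples lay close together inside the range of the Tsc1-/- samples. The difference was 0.05 (95% interval -0.12 to 0.21, adjusted p = 0.805, limma; exact permutation p = 0.421). Cflar had 5 probe sets, and they did not share a sign. The second by level differed by -0.21 (95% interval -0.42 to -0.01, adjusted p = 0.324, limma, over all probe sets), with 7.80, 8.08, 7.99, 8.17 and 7.91 in Tsc1-/-, against 8.33, 8.26, 8.12 and 8.11 in WT. On it 4 of the 5 Tsc1-/- samples lay below all WT samples and replicate 4 lay among them. The remaining 3 differed by 0.0003, -0.04 and -0.19, each with an interval that spans 0. Cflar transcripts encode long and short forms of c-FLIP, and which of them each probe set detects is not given in the sources used here.

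Casp9, the initiator caspase of the apoptosome (probe set 1437537_PM_at), read 7.50, 7.73, 7.37, 7.56 and 7.41 in Tsc1-/-, against 7.53, 7.78, 7.55 and 7.81 in WT. Tsc1-/- replicate 2 and WT replicates 2 and 4 were the high samples, and the genotypes overlapped. The difference was -0.15 (95% interval -0.36 to 0.06, adjusted p = 0.454, limma; exact permutation p = 0.143). Its other probe set differed by -0.19 (95% interval -0.39 to 0.02; exact permutation p = 0.0794). Both Casp9 probe sets lay lower on average in Tsc1-/-, and neither passed a test.

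**Figure D4:**
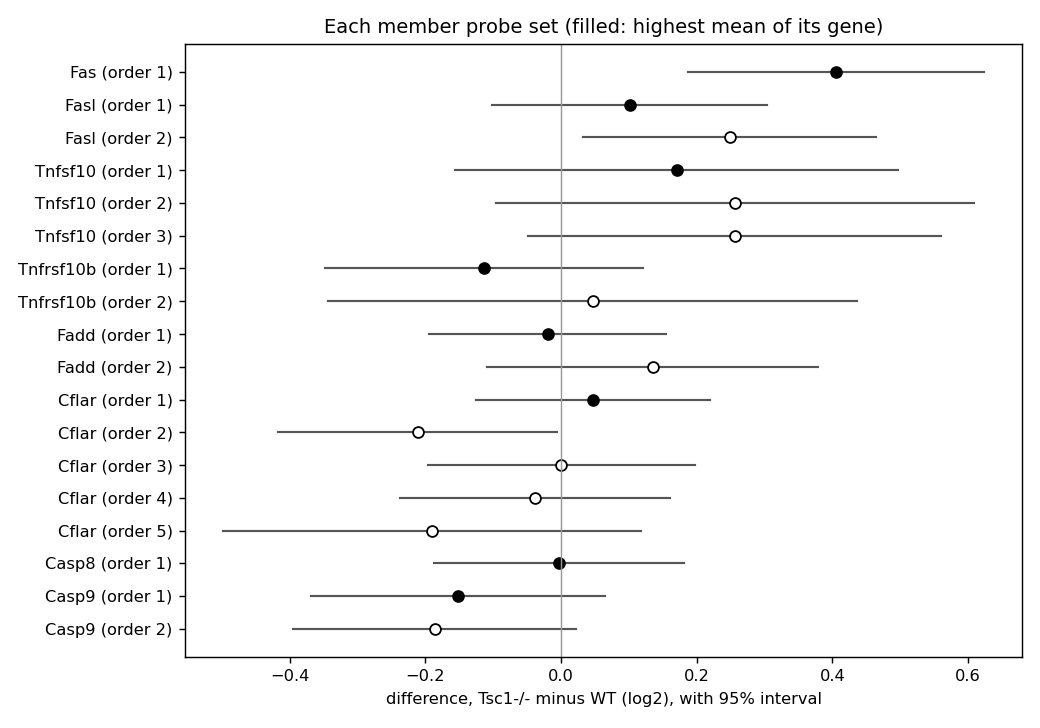
Difference between Tsc1-/- and WT (x axis, log2) with its 95% interval for each of the 18 probe sets of the 8 genes, ordered by mean level within a gene; filled points are the probe sets used for the gene. The intervals of Fas, of the second Fasl probe set and of the second Cflar probe set do not reach 0, and none of the 18 passed the adjusted threshold.

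The surrounding pathway was read from 7 lists with 69 genes, of which 59 were measured and 10 were not analysed here. The lists were chosen with earlier results of these data known, so the shares are descriptions and no set was tested. The shares over all genes include the genes below the median level. At the adjusted threshold 2 of the 59 rose, which is 3.39% beside 0.971% of all genes, and 0 fell (limma). At an unadjusted p under 0.05 there were 16, or 27.1%, beside 17.2% of all genes. Genotypes did not overlap in 6 of the 59 with Tsc1-/- higher, or 10.2% beside 5.08% of all genes, and in 1 with Tsc1-/- lower, or 1.69% beside 2.88% of all genes. The median difference was 0.03. The counts at an unadjusted p under 0.05 in each list below stand beside the same 17.2% of all genes. Those shares ran from 12.5% of 8 receptors to 50% of 4 ligands. In lists this short 1 gene shifts the share widely.

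Of the other receptors and decoys, 8 were measured, 0 passed and 1 had an unadjusted p under 0.05, with a median difference of -0.04. Tnfrsf25, death receptor 3, which binds the cytokine TL1A, read 6.22 to 6.75 in Tsc1-/- and 6.58 to 7.08 in WT, a difference of -0.40 (SE 0.12, adjusted p = 0.127, limma). Tnfrsf1a, the TNF receptor with a death domain, differed by 0.15 (95% interval -0.03 to 0.33). Of 4 other ligands, 0 passed and 2 had an unadjusted p under 0.05, with a median difference of -0.20. Tnf, the cytokine that binds Tnfrsf1a, read 7.31, 6.90, 6.79, 6.79 and 7.30 in Tsc1-/-, against 6.58, 6.505, 6.64 and 6.43 in WT. The genotypes did not overlap for Tnf, and Tsc1-/- replicates 1 and 5 were the highest. Its difference was 0.48 (95% interval 0.21 to 0.75, adjusted p = 0.0748, limma; exact permutation p = 0.0238). Tnfsf14, the ligand LIGHT, differed by -0.20 (adjusted p = 0.281, limma).

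Of 6 other caspases, 0 passed and 2 had an unadjusted p under 0.05, with a median difference of 0.08. Casp4, an inflammatory caspase, differed by 0.32 (adjusted p = 0.220, limma), with Tsc1-/- replicate 1 highest at 8.20, the other Tsc1-/- samples at 7.54 to 7.86 and WT at 7.35 to 7.71. Casp1, which processes interleukin-1 beta, differed by 0.22 (adjusted p = 0.265, limma), with 8.61 to 8.74 in Tsc1-/- and 8.17 to 8.67 in WT. Of 17 genes of the receptor complex and necroptosis, a lytic form of death that Ripk3 drives when caspase-8 is blocked, 0 passed and 3 had an unadjusted p under 0.05, with a median difference of 0.08. Ripk3 read 7.90, 8.25, 8.13, 7.96 and 8.17 in Tsc1-/-, against 7.73, 7.69, 7.61 and 7.80 in WT. The genotypes did not overlap for Ripk3, and its difference was 0.37 (95% interval 0.18 to 0.57, adjusted p = 0.0606, limma; exact permutation p = 0.0159). Traf1, an adaptor that binds TNF receptors without a death domain, differed by -0.36 (adjusted p = 0.118, limma).

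In the mitochondrial route, 1 of 8 measured genes passed, Cycs, which encodes cytochrome c. It read 10.46 to 10.64 in Tsc1-/- and 10.12 to 10.24 in WT and rose by 0.36 (SE 0.07, adjusted p = 0.0390, limma). The value was 0.16 (adjusted p = 0.345) when its probe sets were averaged. Taken from a probe set without a suffix for shared probes, it was 0.19 (95% interval -0.04 to 0.43, adjusted p = 0.400, limma). The median difference of that list was 0.06, and 3 of its 8 genes had an unadjusted p under 0.05. Bak1, a pore-forming protein of the mitochondrial membrane that was picked after its values were seen, read 10.58 to 10.81 in Tsc1-/- and 10.34 to 10.48 in WT (adjusted p = 0.0703, limma). Among 7 inhibitors of apoptosis 0 passed and 2 had an unadjusted p under 0.05, with a median difference of -0.01. Birc5, survivin, which also acts in cell division, read 9.13 to 9.47 in Tsc1-/-, against 8.12, 8.20, 8.94 and 8.95 in WT, a difference of 0.74 (SE 0.17, adjusted p = 0.0559, limma). WT replicates 3 and 4 lay nearer to the Tsc1-/- samples than to WT replicates 1 and 2. Naip2, a sensor of bacterial proteins, differed by -0.40 (adjusted p = 0.238, limma), and Xiap, which binds and blocks caspases, by 0.11 (95% interval -0.14 to 0.36).

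Of 9 measured caspase substrates and DNA fragmentation genes, 1 passed and 3 had an unadjusted p under 0.05, with a median difference of 0.03. Gsn, the actin-severing protein gelsolin, which is cleaved during apoptosis, read 8.49, 8.64, 8.79, 8.49 and 8.64 in Tsc1-/-, against 8.02, 8.21, 8.14 and 8.18 in WT. The genotypes lay well apart, and Gsn rose by 0.48 (SE 0.09, adjusted p = 0.0339, limma), with a value of 0.30 (adjusted p = 0.0766) when its probe sets were averaged. Taken from a probe set without a suffix for shared probes, the Gsn difference was 0.37 (95% interval 0.04 to 0.69, adjusted p = 0.245, limma). The call of Cycs ended without any single array other than WT replicate 4 (adjusted p = 0.0554 to 0.137), and that of Gsn without any other than WT replicate 4 or Tsc1-/- replicate 1 (adjusted p = 0.0554 to 0.119). With the macrophage marker level as covariate Cycs differed by 0.33 (adjusted p = 0.338) and Gsn by 0.48 (adjusted p = 0.273).

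**Figure D5:**
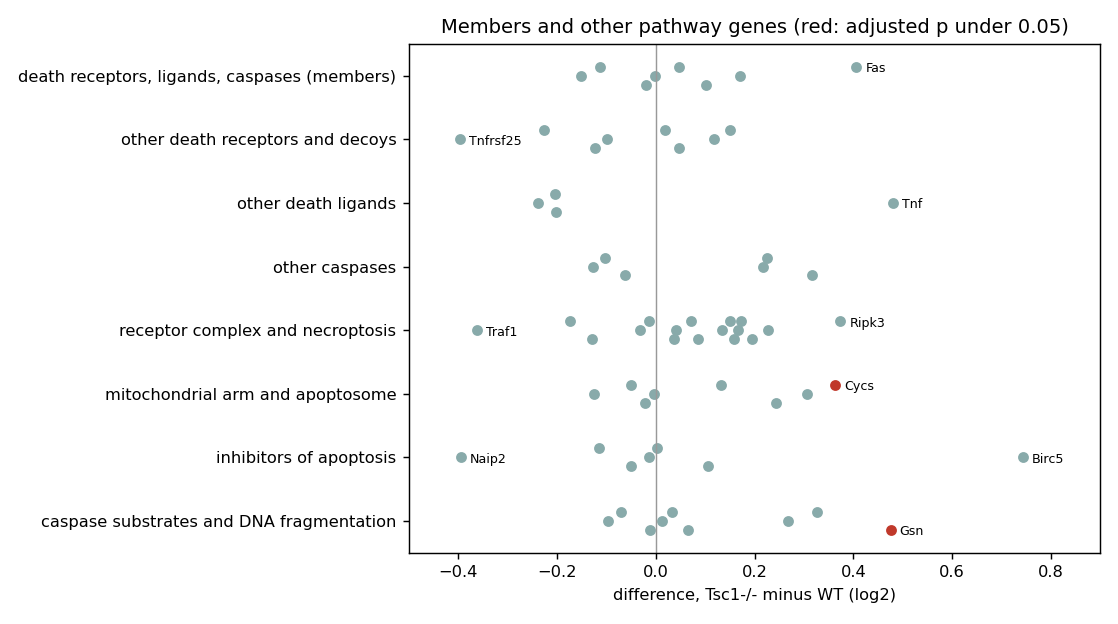
Difference between Tsc1-/- and WT (x axis, log2) for the 8 genes (top row) and the 59 other pathway genes by list (y axis), 1 point per gene, spread vertically only to avoid overlap; red points passed the adjusted threshold, and points past 0.35 in size are named. Cycs at 0.36 and Gsn at 0.48 are the red points, and the 8 genes lie between -0.15 and 0.17 except Fas at 0.41.

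The genes whose levels followed each of the 8 most closely over the 9 arrays were looked up among the genes at or above the median level, by the Pearson coefficient of the log2 values. They share the arrays, their normalization and any genotype difference, and the coefficients are given as descriptions. Each is among the highest of 8548 genes searched (8549 for Tnfrsf10b) over only 9 arrays. With so many genes and so few arrays, high coefficients can arise by chance, and none was tested against that. For Fas they were Pqlc3 (0.970) and Ncbp1 (0.964), for Tnfsf10 Epb41l2 (0.978) and P2rx7 (0.965), and for Fasl Sox4 (0.915) and Fbrsl1 (0.910). For Cflar they were Pofut2 (0.962) and Cyb561a3 (0.960), for Fadd Cybc1 (0.954) and Zfp251 (0.925), and for Casp9 Cx3cl1 (0.929) and Bpifb1 (0.919). For Tnfrsf10b they were Klhdc1 (0.918) and Pabpc1l (0.898), and for Casp8 Lrrc8c (0.893) and Celsr1 (0.891). None of the 8 genes was among the matches named for another, which was likely in advance with so many genes searched. Tnfrsf10b, below the median level, was not among the genes searched.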

How the data were processed

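RNA from 9 sorted samples was hybridised to 1 array each, after 12 ng per sample had been amplified and biotin-labelled. The deposited numbers are log2 values of expression that the authors obtained by RMA, and the submitters' processing notes also name Partek 6.5. Since RMA puts the probe intensities of every array on one distribution, a shift common to nearly all transcripts would be lost. The deposited array medians still ran from 5.97 to 6.05. Median centring raised every difference by the same amount, that of Fas from 0.41 to 0.45 and that of Casp8 from -0.003 to 0.040. RMA options and the build used to annotate probe sets are not stated.

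Of 45037 probe sets, 28898 had 1 gene in the platform annotation, 551 several and 15588 none listed. Symbols were updated through Entrez identifiers for 28689. The fit was lmFit and eBayes of limma 3.58.1 (R 4.3.3) over all 17097 genes, genotype as the only term, Benjamini-Hochberg adjusted, threshold 0.05. Permutation p-values are the share of all splits of the arrays into 5 and 4 whose absolute difference was at least as large. The number of arrays limits the precision. The tests were checked on made-up values with known answers.

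The 8 genes, the pathway and marker lists and the tests were chosen with earlier results of these data known. An interferon response list was added after the values were seen. Named were the 8 genes, Tsc1, the genes of each pathway list past the threshold or otherwise the 2 with the smallest p, and for each of the 8 genes the 2 most alike. Xiap, Bak1 and Eomes were added after their values were seen. Alternatives were averaged probe sets, unjoined probe sets, probe sets without a suffix for shared probes, dim genes left out, quantile normalization, median centring, a robust variance trend, array weights, a block for the replicate number, macrophage or B cell marker level as covariate, each array left out, and WT replicate 4 with Tsc1-/- replicate 1 left out. Figures were drawn in Python 3.11.15.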

Additional observations from a re-analysis of the deposited data

Results flagged for a closer look

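In the 36 sets of 4 or 5 values formed by the 18 probe sets and 2 genotypes, 4 held a sample far from the others of its genotype (Dixon's test at 95%). Chance alone gives about 1 in 20 sets. The sets share the same samples and are not independent, and whether 4 exceeds chance was not tested. On the least bright Tnfsf10 probe set, Tsc1-/- replicate 1 read 7.34, with the other Tsc1-/- samples at 6.64 to 6.76, and on the same probe set WT replicate 4 read 6.78, with the other WT samples at 6.48 to 6.52. On the less bright Tnfrsf10b probe set, WT replicate 2 read 3.14, with the other WT samples at 3.92 to 4.02. On the least bright Cflar probe set, WT replicate 3 read 6.25, with the other WT samples at 6.64 to 6.71. None of these probe sets is the one used for its gene. Tsc1-/- replicate 1 also had the lowest dendritic cell marker level of the 9 arrays, at 7.83, and whether this bears on its Tnfsf10 value was not tested.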

How the results depend on the processing

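Over 20 other settings (19 for Tnfrsf10b, which is not tested when dim genes are left out), Fas kept its direction and passed the threshold in 4: dim genes left out (0.41), median centring (0.45), variance trend (0.41) and array weights (0.41). Without 1 array it was 0.33 to 0.45 (adjusted p = 0.0649 to 0.154). Leaving out dim genes and the variance trend change the difference of no gene. Fas has 1 probe set, so averaged probe sets and the suffix setting could not change its direction either. Fasl (0.008 to 0.25), Tnfsf10 (0.03 to 0.24) and Casp9 (-0.21 to -0.10) kept their direction and passed in none of the 20. Differences near 0 changed sign without passing: Casp8 (0.040 after median centring, -0.034 to 0.039 without 1 array), Fadd (0.057 with probe sets averaged, 0.023 after median centring, 0.0093 with the macrophage marker level, -0.061 to 0.011 without 1 array), Cflar (-0.079 with probe sets averaged, -0.0011 after quantile normalization) and Tnfrsf10b (0.047 without shared-probe suffixes, which takes its dimmer probe set). Cycs lost the threshold in 15 and Gsn in 12 of 20 settings.

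Of all genes, 166 were higher and 53 lower. Leaving out dim genes left 8549 genes in the fit. Higher and lower genes numbered 542 and 140 with dim genes left out, 58 and 32 after quantile normalization, 381 and 57 after median centring, 509 and 171 with a variance trend, 340 and 125 with array weights, 0 and 0 with either marker level as covariate, and 69 and 39 probe sets when not joined to genes. With WT replicate 4 and Tsc1-/- replicate 1 both left out there were 145 lower genes. Without 1 array they numbered 1 to 297 and 1 to 159, within 1.5 times the full count only without Tsc1-/- replicate 1 (142 and 46). Of the 59 pathway genes, 2 were higher, against 1 with probe sets averaged or quantile normalization, 0 without shared-probe suffixes or with either covariate, 6 with dim genes left out or a variance trend, 5 after median centring, 4 with array weights and 0 to 3 without 1 array. The settings with 4 to 6 pathway genes higher were also those with the most higher genes of all, 340 to 542. No pathway gene was lower in any of the 20 settings. The causes of these shifts were not tested. With the replicate block (which takes up Tsc1-/- replicate 5, since no WT sample has that number) 0 genes were higher and 0 lower, 0 pathway genes were higher, and Fas differed by 0.38 (adjusted p = 0.190). Samples share only a number: their deviations correlated at -0.10 to 0.09, and 1 of 4 WT samples correlated best with its own number.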

Other observations

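The mean level of interferon response genes, a list of 10 chosen after the values were seen and with 7 measured, was 6.83 in Tsc1-/- replicate 1, 6.67 to 6.97 in the other Tsc1-/- samples and 6.76 to 6.97 in WT. Whether it bears on the Tnfsf10 value of Tsc1-/- replicate 1 was not tested.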
